A study of Mus musculus with 4 samples.

Results

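Transcripts of 9 genes that mark newborn neurons and progenitors of the subventricular zone were followed across the medial and lateral parts of the mouse dorsal striatum, in mice homozygous for a humanised Foxp2 allele and in wild-type mice. The genes were Dcx, Igfbpl1, Cd24a, Sox11, Sox4, Dlx1, Dlx2, Sp8 and Nes, and every row of the deposited table that carries one of these symbols was taken. That gave 10 of the 25259 rows, because Sox4 has a second, short row inside its own span. All 10 rows had a mean of at least 10 normalised reads over all libraries and so passed the filter on low values. The filter left 19561 rows to be tested.

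The samples were 12 libraries of Foxp2hum/hum dorsomedial striatum (DMS), 11 of wild-type DMS, 12 of Foxp2hum/hum dorsolateral striatum (DLS) and 11 of wild-type DLS, all from C57BL/6 mice at 8 weeks of age. Foxp2 encodes a forkhead transcription factor, and the tissue was cut out of frozen brains by laser capture microdissection. Each sample of 15 ng of total RNA was enriched for messenger RNA, and the indexed libraries were pooled on 3 flow cells of a GAIIx sequencer. A normalised read is a read count divided by the size factor that the authors gave the library. The labels do not tie a library to an animal or to a flow cell, so p-values measure the spread between libraries, which may in part be technical.

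In the adult rodent forebrain, stem cells in the wall of the lateral ventricle give rise to dividing progenitors, and these to neuroblasts that migrate along the rostral migratory stream to the olfactory bulb. The dorsomedial striatum lies next to that wall and the dorsolateral striatum lies away from it. Migrating neuroblasts carry doublecortin and the surface protein CD24, and the Dlx, Sox and Sp factors act along the path from progenitor to olfactory interneuron. Nestin, by contrast, is the intermediate filament of stem cells and early progenitors, and it is also made by cells of blood vessels.

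The 4 start regions below are shown, to set the promoters of genes that were higher in DMS beside the promoter of Nes, which did not pass. They are the 250 bases before the annotated start from RefSeq on build GRCm38.p6, whereas all gene positions below are on mm9. The motifs searched on both strands were TAATTA, the core read by homeodomain proteins such as the Dlx factors, CAGCTG, an E-box read by basic helix-loop-helix proteins, ACAATG, a core read by Sox proteins, and TATAAA, the TATA box. None of these matches overlap, and capitals mark them.
Dcx (chrX:143933220-143933469, minus strand): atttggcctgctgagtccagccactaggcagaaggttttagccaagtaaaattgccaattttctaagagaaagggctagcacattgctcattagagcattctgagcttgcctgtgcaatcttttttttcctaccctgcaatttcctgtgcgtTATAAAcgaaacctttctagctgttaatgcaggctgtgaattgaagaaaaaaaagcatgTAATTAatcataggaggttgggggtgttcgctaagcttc
Sox11 (chr12:27342719-27342968, minus strand): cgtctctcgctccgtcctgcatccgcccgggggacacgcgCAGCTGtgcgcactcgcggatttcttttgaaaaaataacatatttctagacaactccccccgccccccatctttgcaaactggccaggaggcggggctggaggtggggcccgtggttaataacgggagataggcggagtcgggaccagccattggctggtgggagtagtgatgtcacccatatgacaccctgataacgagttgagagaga
Sox4 (chr13:28953700-28953949, minus strand): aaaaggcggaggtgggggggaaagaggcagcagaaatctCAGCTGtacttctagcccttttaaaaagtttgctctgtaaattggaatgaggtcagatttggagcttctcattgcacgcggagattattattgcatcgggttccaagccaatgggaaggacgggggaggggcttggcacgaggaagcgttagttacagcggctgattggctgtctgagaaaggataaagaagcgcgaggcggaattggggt
Nes (chr3:87970843-87971092, plus strand): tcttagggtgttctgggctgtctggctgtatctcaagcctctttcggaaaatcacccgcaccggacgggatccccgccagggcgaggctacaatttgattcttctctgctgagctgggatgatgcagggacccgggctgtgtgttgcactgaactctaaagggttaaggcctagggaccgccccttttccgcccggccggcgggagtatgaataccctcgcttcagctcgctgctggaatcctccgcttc

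The upstream of the first annotated Dcx start held 1 TAATTA, 39 bases before the start, and 1 TATAAA. Sox11 and Sox4 each held 1 CAGCTG, at nearly the same place, 210 and 211 bases before the start. The same window of Nes held none of the 4 motifs. Nor did those of Dlx1 and Dlx2, which were higher in DMS and are not printed. Sp8 has 3 annotated starts, and the first held 2 TATAAA, the second none of the motifs and the third a TAATTA 188 bases upstream. Among 32851 windows of this length in the same table, 4.84% held TAATTA, 13% held CAGCTG, 10.69% held ACAATG and 12.37% held TATAAA. Only 7 of the 9 symbols were matched in the promoter table, and Cd24a and Igfbpl1 were the others. These matches are letters in a window and no binding was measured.

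The medial and lateral striatum were compared first, within each genotype. All members but Nes were higher in DMS than in DLS, in Foxp2hum/hum and in wild-type mice alike, by 2.74-fold to 8.97-fold. The difference was widest for Igfbpl1, Sp8 and Dcx and narrowest for Sox11 in Foxp2hum/hum and the full Sox4 row in wild-type. Of the 10 rows, 9 passed limma at an adjusted p under 0.05 in Foxp2hum/hum and 9 in wild-type, all of them higher in DMS. Among all tested rows, 9.33% were higher in DMS in Foxp2hum/hum and 8.54% in wild-type, 8.82% and 8.72% were lower, and 18.1% and 17.3% differed in either direction. The median log2 difference of the 10 rows was 2.04 in Foxp2hum/hum and 1.85 in wild-type, where the medians over all tested rows were 0.02 and 0.01. Fold changes throughout are those of log2(value + 1), which understates the change of weakly expressed genes. In bulk tissue, fewer cells of a type and less RNA per cell cannot be told apart.

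Dcx encodes doublecortin, a microtubule-associated protein of migrating neuroblasts (ENSMUSG00000031285, mm9 chromosome X, 140290385 to 140367854, minus strand). In Foxp2hum/hum mice it ran from 149 to 845 normalised reads in DMS, with a median of 312, against 34.7 to 119 in DLS, with a median of 46.7. In wild-type mice the DMS libraries lay between 207 and 580 with a median of 260, and the DLS libraries between 16.1 and 111 with a median of 53.2. Every DMS library was above every DLS library in both genotypes. The difference was 6.27-fold in Foxp2hum/hum (95% interval 4.49 to 8.77, limma adjusted p = 1.54e-12) and 6.45-fold in wild-type (4.54 to 9.15, limma adjusted p = 4.46e-12).

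**Figure D1:**
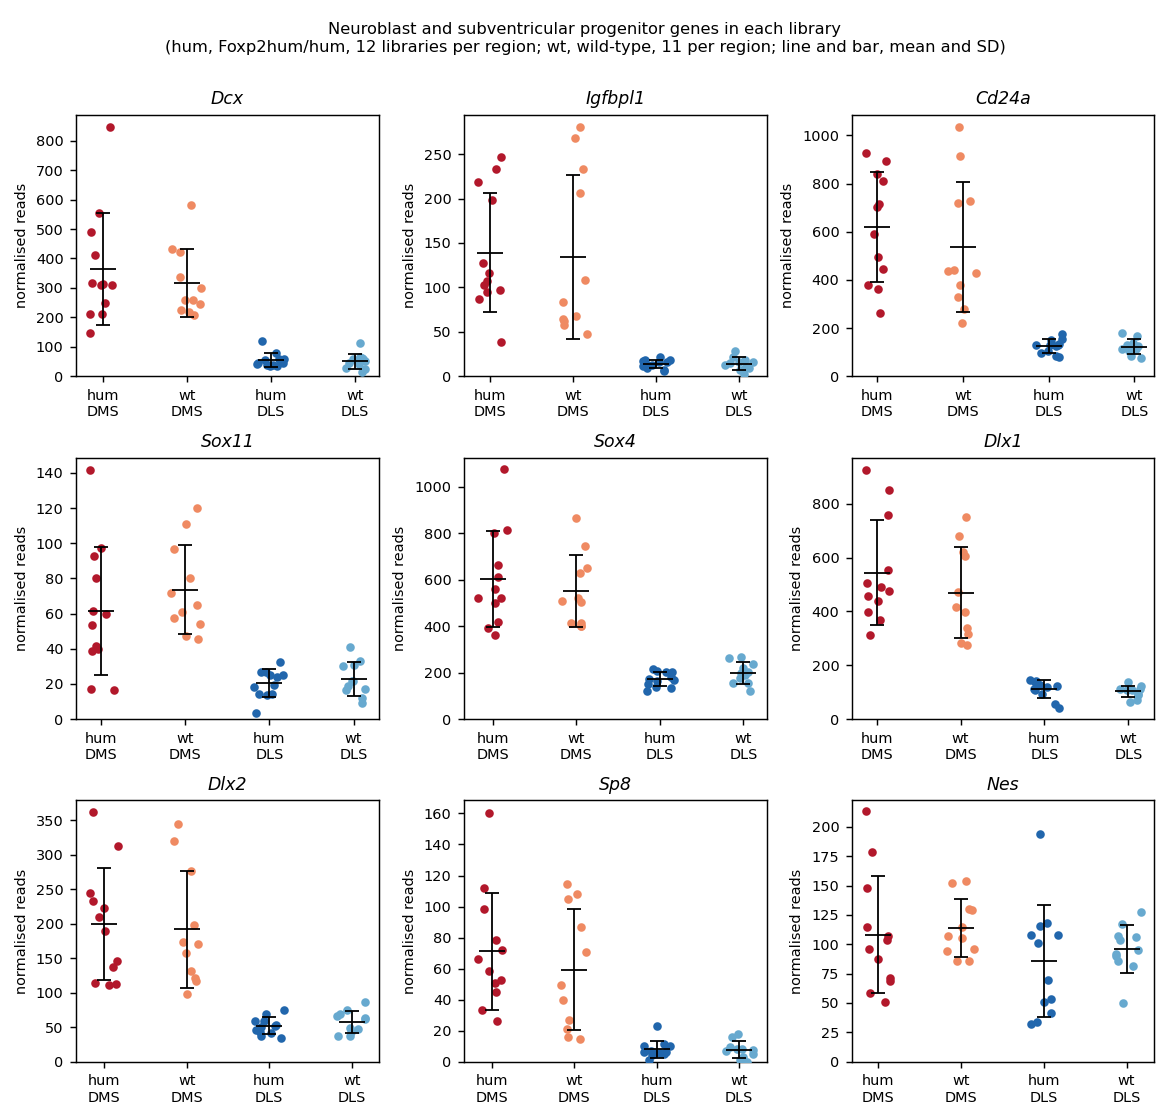
Normalised reads (vertical axes, linear, from 0) of the 9 genes in each library, with 1 point per library, the horizontal line at the group mean and the bar showing the SD; hum stands for Foxp2hum/hum (12 libraries a region) and wt for wild-type (11 a region). For 8 genes the DMS points lie above most or all DLS points in both genotypes, while the Nes points of the regions overlap, with 4 of 11 wild-type DMS libraries above every wild-type DLS library; Sox4 is shown for its full row.

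Igfbpl1, which encodes a secreted insulin-like growth factor binding protein-like factor and is used as a marker of newborn neurons, had the largest fold change of the members (ENSMUSG00000035551, chromosome 4, 45822340 to 45839795, minus strand). Its DMS libraries ran from 39.04 to 247 normalised reads in Foxp2hum/hum, with a median of 111, and its DLS libraries from 5.95 to 21.4, with a median of 14.3. Among wild-type mice they ran from 47.8 to 280 in DMS (median 83.7) and from 2.14 to 28.1 in DLS (median 15.1). The groups did not overlap in either genotype, and the wild-type DMS libraries fell into 4 libraries (34, 50, 56 and 76) at 206 or more and 7 at 109 or less. The differences were 8.97-fold in Foxp2hum/hum (5.80 to 13.9, limma adjusted p = 2.36e-11) and 8.28-fold in wild-type (5.24 to 13.1, limma adjusted p = 2.76e-10).

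Cd24a encodes the surface glycoprotein CD24, carried by neuroblasts and also by ependymal cells (ENSMUSG00000047139, chromosome 10, 43298975 to 43304068, plus strand). Foxp2hum/hum DMS libraries held 262 to 926 normalised reads (median 646), against 78.7 to 176 in Foxp2hum/hum DLS (median 130). Wild-type DMS libraries held 220 to 1036 (median 435), against 76.1 to 179 in wild-type DLS (median 115). Again no DLS library reached the lowest DMS library of its genotype. Cd24a was 4.69-fold higher in DMS in Foxp2hum/hum (3.53 to 6.24, limma adjusted p = 2.26e-12) and 4.0-fold higher in wild-type (2.97 to 5.39, limma adjusted p = 2.43e-10).

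Sox11 and Sox4 encode related SoxC transcription factors of immature neurons. For Sox11 (ENSMUSG00000063632, chromosome 12, 28025562 to 28027574, minus strand), Foxp2hum/hum libraries ran from 16.3 to 142 normalised reads in DMS (median 56.5) and from 3.47 to 32.6 in DLS (median 21.5). The corresponding wild-type values were 45.6 to 120 in DMS (median 65.1) and 8.84 to 40.8 in DLS (median 21.4). In wild-type the regions were separate, whereas in Foxp2hum/hum the lowest DMS libraries, 64 and 4, fell inside the DLS range. Sox11 was 2.75-fold higher in Foxp2hum/hum DMS (1.84 to 4.10, limma adjusted p = 0.000122) and 3.24-fold higher in wild-type DMS (2.13 to 4.92, limma adjusted p = 2.43e-05).

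The full Sox4 row (ENSMUSG00000076431, chromosome 13, 29040788 to 29045582, minus strand) ran from 361 to 1076 normalised reads in Foxp2hum/hum DMS (median 541), against 120 to 215 in Foxp2hum/hum DLS (median 170). In wild-type it ran from 398 to 865 in DMS (median 510) and from 119 to 266 in DLS (median 198). Regions did not overlap in either genotype. The difference was 3.39-fold in Foxp2hum/hum (2.76 to 4.17, limma adjusted p = 1.49e-13) and 2.74-fold in wild-type (2.21 to 3.40, limma adjusted p = 2.14e-10). The second Sox4 row (ENSMUSG00000078309, 29042607 to 29043011, 405 bases) held 5.95% of the reads of the first and gave 3.29-fold and 3.11-fold. It is not a separate measurement, since its bases lie wholly within the full gene.

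The antisense transcript Gm17419, listed in the table as AL606528.1, crosses Sox4 and amounted to 71.81% of its reads. It was higher in DMS as well, by log2 1.84 ± 0.16 (SE) in Foxp2hum/hum and 1.44 ± 0.17 in wild-type (limma adjusted p = 3.75e-13 and 2.10e-09). Reads appear to have been counted over the whole span of a gene, introns included, whatever their strand. There were 299 pairs of an intronic gene with a mean of at least 500 reads and a gene around it, 209 of them on opposite strands. In no pair did the intronic gene exceed the gene around it in any library. Reads of Sox4 and of its antisense partner therefore could not be told apart.

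Dlx1 and Dlx2 are neighbouring homeobox genes that specify GABAergic interneurons. Dlx1 (ENSMUSG00000041911, chromosome 2, 71366170 to 71372038, plus strand) ran from 314 to 927 normalised reads in Foxp2hum/hum DMS (median 482), against 39.4 to 143 in Foxp2hum/hum DLS (median 121). Wild-type libraries lay between 275 and 751 in DMS (median 417) and between 64.9 and 136 in DLS (median 109). The lowest DMS library stood far above the highest DLS library in both genotypes. Dlx1 was 4.89-fold higher in Foxp2hum/hum DMS (3.76 to 6.37, limma adjusted p = 8.08e-14) and 4.37-fold higher in wild-type DMS (3.32 to 5.76, limma adjusted p = 3.93e-12). Dlx1as, an antisense transcript that spans all of Dlx1, had 145.01% of its reads and was higher by log2 1.72 ± 0.15 and 1.67 ± 0.16 (SE), so these were not measured separately either.

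Dlx2 (ENSMUSG00000023391, chromosome 2, 71381466 to 71384811, minus strand) ran from 112 to 362 normalised reads in Foxp2hum/hum DMS (median 199) and from 34.5 to 74.3 in Foxp2hum/hum DLS (median 51.5). In wild-type it ran from 97.5 to 345 in DMS (median 170) and from 36.6 to 86.7 in DLS (median 61.6). No library of one region entered the range of the other. The difference was 3.61-fold in Foxp2hum/hum (2.75 to 4.75, limma adjusted p = 1.63e-10) and 3.14-fold in wild-type (2.36 to 4.18, limma adjusted p = 1.31e-08).

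Sp8 encodes a zinc finger factor of the neuroblasts that become olfactory bulb interneurons (ENSMUSG00000048562, chromosome 12, 120084802 to 120091051, plus strand). Its Foxp2hum/hum libraries ran from 26.3 to 160 normalised reads in DMS (median 62.4) and from 1.02 to 23.2 in DLS (median 6.09). In wild-type, DMS libraries lay between 14.8 and 115 (median 49.1) and DLS libraries between 0 and 17.8 (median 7.52). Wild-type regions overlapped slightly, while those of Foxp2hum/hum did not. Library 26 of wild-type DLS had 0 reads, and the 3 reads that such a count allows are worth 3.54 normalised reads there, for counting error only. The differences were 8.40-fold in Foxp2hum/hum (4.84 to 14.6, limma adjusted p = 2.77e-08) and 7.21-fold in wild-type (4.06 to 12.8, limma adjusted p = 4.61e-07), with the widest intervals of the members.

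Nes was the exception (ENSMUSG00000004891, chromosome 3, 87775000 to 87784373, plus strand). In Foxp2hum/hum it ran from 51.3 to 214 normalised reads in DMS (median 99.9) and from 32.2 to 194 in DLS (median 85.1). Wild-type libraries lay between 85.7 and 154 in DMS (median 107) and between 50.2 and 127 in DLS (median 95.5). The regions overlapped in both genotypes. In Foxp2hum/hum 1 of 12 DMS libraries lay above every DLS library, and in wild-type 4 of 11 did. The ratio of DMS to DLS was 1.33 in Foxp2hum/hum (0.976 to 1.83, limma adjusted p = 0.218) and 1.19 in wild-type (0.858 to 1.65, limma adjusted p = 0.521). The wild-type interval reaches 1.65-fold and the Foxp2hum/hum interval 1.83-fold, each below the lower limit of every other row in the same genotype.

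**Figure D2:**
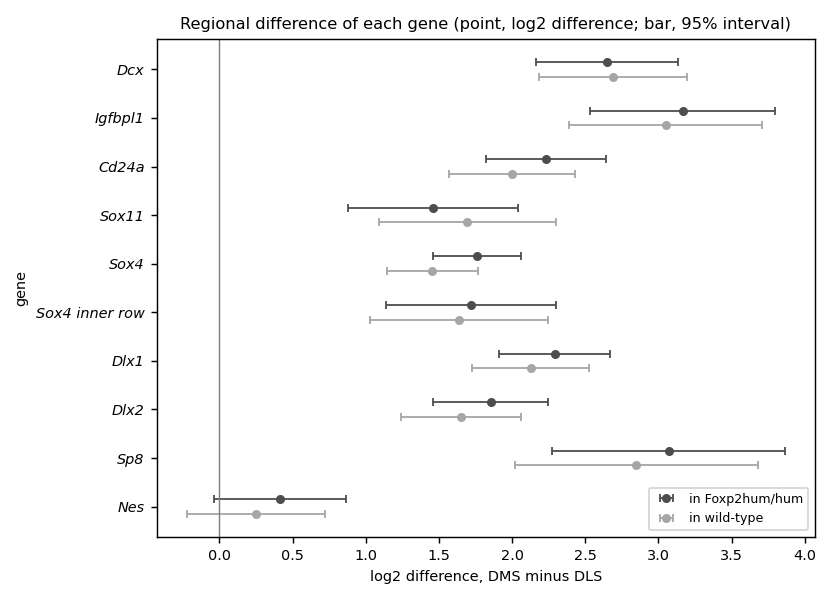
Difference between DMS and DLS on the log2 scale (horizontal axis, DMS minus DLS of log2(value + 1)) for each of the 10 rows, with points for the fitted difference and bars for its 95% interval, dark for Foxp2hum/hum and light for wild-type. Only the Nes intervals include 0, and the intervals of the genotypes overlap for each row.

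The groups of DMS and DLS libraries were fully separate for 7 of the 10 rows in Foxp2hum/hum and for 7 in wild-type. Among all tested rows, 1.06% in Foxp2hum/hum and 0.93% in wild-type were separate with DMS higher. By group means, both DMS groups stood above both DLS groups for all 10 rows, Nes included. The most frequent order, seen in 4 rows (Dcx, Dlx1, Cd24a and Sp8), was Foxp2hum/hum DMS, wild-type DMS, Foxp2hum/hum DLS and wild-type DLS. Neighbours within a region did not differ beyond their spread in any row, as the tests of genotype show.

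Genotype was compared next, within each region, and no member passed. The 0 of 10 rows that passed in DMS and the 0 that passed in DLS stand beside 0.0% of all tested rows in each region. At an unadjusted p under 0.05, limma gave 700 rows in DMS and 843 in DLS over the whole table and none of the members. EdgeR called 0 rows in either region (757 and 773 at an unadjusted p under 0.05), and DESeq2 called 0 in DMS and 3 in DLS, none of them a member.

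In DMS, Dcx averaged 364 ± 191 normalised reads in Foxp2hum/hum and 317 ± 117 in wild-type (SD, n = 12 and 11), a ratio of 1.09 (95% interval 0.773 to 1.53, limma adjusted p = 0.958). Sox11 had the lowest ratio there, at 61.6 ± 36.3 in Foxp2hum/hum and 73.6 ± 25.5 in wild-type, or 0.744 (0.494 to 1.12). Sp8 had the highest, at 71.1 ± 37.6 in Foxp2hum/hum and 59.4 ± 39.1 in wild-type, or 1.35 (0.770 to 2.37). Both ratios had limma adjusted p = 0.955. For 8 of the 10 rows the interval lay within a 2-fold difference in either direction, and for 2 rows, the full Sox4 row and Dlx2, it lay within 1.5-fold.

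In DLS, Nes had 85.5 ± 47.6 normalised reads in Foxp2hum/hum and 96.1 ± 20.5 in wild-type, the lowest ratio of the members at 0.793 (0.575 to 1.09, limma adjusted p = 0.843). Sp8 again had the highest, 7.96 ± 5.62 in Foxp2hum/hum and 7.60 ± 5.52 in wild-type, or 1.16 (0.661 to 2.04, limma adjusted p = 0.894). Dcx averaged 54.8 ± 23.9 in Foxp2hum/hum and 51.5 ± 25.8 in wild-type, a ratio of 1.12 (0.795 to 1.58). Intervals lay within 2-fold for 9 rows and within 1.5-fold for 4 (Sox4, Dlx1, Dlx2 and Cd24a). The Foxp2hum/hum and wild-type libraries overlapped for every row in both regions.

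**Figure D3:**
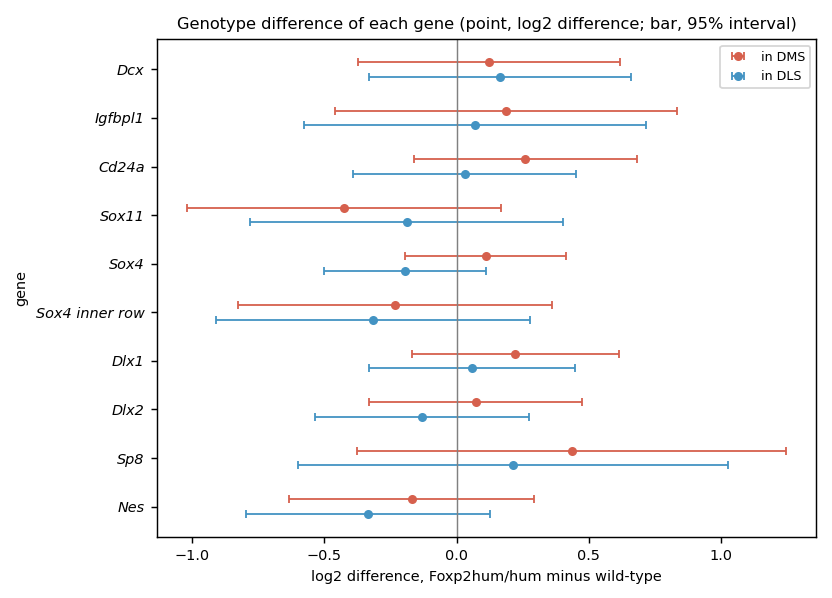
Difference between genotypes on the log2 scale (horizontal axis, Foxp2hum/hum minus wild-type of log2(value + 1)) for each of the 10 rows, with points for the fitted difference and bars for its 95% interval, red for DMS and blue for DLS. All intervals include 0, and those of Sp8 are the widest.

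The interaction asks whether the regional difference itself depends on genotype. It passed for 0 of 10 rows, beside 0.0% of all tested rows (321 at an unadjusted p under 0.05 by limma, and 0 calls by edgeR and by DESeq2). Its log2 value ran from -0.24 for Sox11 to 0.31 for Sox4, where a positive value means a larger excess in DMS in Foxp2hum/hum. The Sox4 interaction was 0.31 ± 0.21 (SE, unadjusted p = 0.161) and that of Dcx was -0.04 ± 0.35 (unadjusted p = 0.909), each with limma adjusted p = 0.9999.

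Other genes of the same lineage were taken from lists, which are described by counts and medians. Of 18 tested genes of transit-amplifying and dividing progenitors, 13 were higher in DMS in Foxp2hum/hum and 15 in wild-type, with 0 lower in either. The median log2 difference was 1.86 in Foxp2hum/hum and 1.75 in wild-type. Mki67, the gene of the proliferation antigen Ki-67, ran from 38.5 to 286 normalised reads in Foxp2hum/hum DMS, against 1.86 to 27.9 in Foxp2hum/hum DLS. In wild-type it ran from 72.3 to 363 in DMS and from 5.93 to 31.4 in DLS. These ranges were separate in both genotypes, and the log2 difference was 3.40 and 3.29. Top2a, a topoisomerase of dividing cells (log2 3.38 in Foxp2hum/hum and 3.07 in wild-type) and Rrm2, a ribonucleotide reductase subunit (2.83 and 3.03), had like differences.

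Of 13 genes of adult neural stem cells and radial glia, 9 were higher in Foxp2hum/hum and 8 in wild-type, and 0 were lower. Thbs4, a matrix protein gene made by astrocytes of the ventricular wall, had the largest difference of the list. It had a median of 285 normalised reads in Foxp2hum/hum DMS, against 18.6 in Foxp2hum/hum DLS, and of 217 in wild-type DMS, against 13.96 in wild-type DLS (log2 4.25 and 4.38). Sox2, a stem cell transcription factor gene, differed by 0.84 and 0.80, with an overlapping row at 211% of its reads. Vim, which encodes vimentin, a filament protein that pairs with nestin, differed by 1.32 in Foxp2hum/hum and 1.14 in wild-type, unlike Nes.

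Migrating neuroblast genes outside the members were mixed. Of 15 tested, 6 were higher and 1 was lower in Foxp2hum/hum, and 7 were higher and 1 was lower in wild-type, with a median log2 of 0.26 and 0.27. Dpysl3, which encodes a collapsin response mediator protein of growing axons, was higher by 1.39 in Foxp2hum/hum and 1.07 in wild-type. Smaller differences were seen for the tubulin gene Tubb2b (0.38 and 0.47) and the stathmin gene Stmn2 (0.32 and 0.45). Dlx6 was lower, by log2 -0.45 and -0.44, and its antisense neighbour Dlx6os1, at 280% of its reads, was lower too (-0.28 and -0.32).

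Among 8 relatives of the members by gene family, 1 was higher and 3 were lower in Foxp2hum/hum, and 2 were higher and 3 were lower in wild-type. The closest relative of Dcx, the doublecortin-like kinase gene Dclk1, averaged 7246 ± 815 normalised reads in Foxp2hum/hum DMS, against 10574 ± 708 in Foxp2hum/hum DLS (SD, n = 12 each). In wild-type it averaged 7344 ± 854 in DMS, against 11092 ± 1188 in DLS (n = 11 each). It was thus lower in DMS, by log2 -0.55 ± 0.07 and -0.60 ± 0.07 (SE), the opposite of Dcx. The paralogs Dlx5 (0.16 and 0.16) and Sp9 (0.07 and -0.02) did not pass in either genotype; they are named here because they are close relatives of members and were chosen after their values were seen. The Sp9 row shares reads with Cir1, at 86.08% of it.

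**Figure D4:**
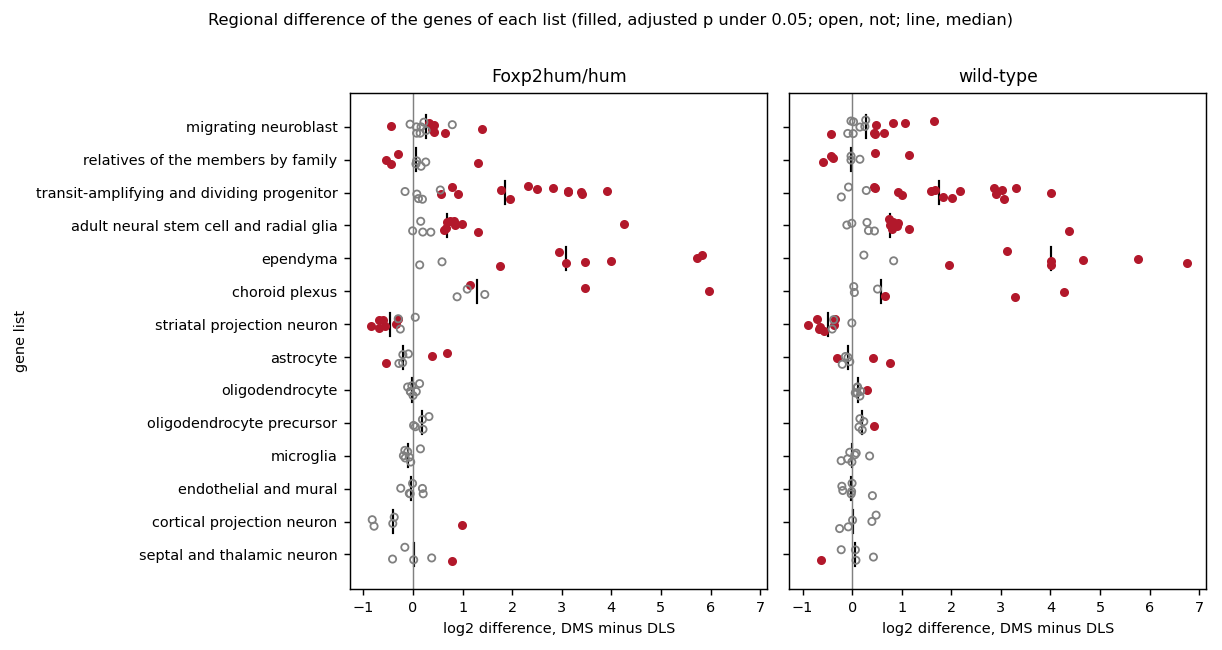
Difference between DMS and DLS on the log2 scale (horizontal axes) for each gene of 14 lists (rows), left for Foxp2hum/hum and right for wild-type, with 1 circle per gene, filled where limma adjusted p was under 0.05, and a vertical line at the list median. Progenitor, stem cell and ependymal genes lie mostly to the right of 0 in both genotypes, and striatal projection neuron genes to the left.

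Most marker genes of the ependyma, which lines the ventricle, were also higher in DMS. Of 9 tested ependymal genes, 7 were higher in DMS in each genotype and 0 were lower, with a median log2 of 3.08 in Foxp2hum/hum and 4.01 in wild-type. Ccdc153, expressed in ciliated cells, held 89.2 to 326 normalised reads in Foxp2hum/hum DMS, against 0 to 27.9 in Foxp2hum/hum DLS, where 4 libraries were at 0. In wild-type it held 40.6 to 308 in DMS and 0 to 2.15 in DLS, where 9 libraries were at 0. Its ranges were separate in both genotypes, as were those of Foxj1, the regulator of ciliogenesis, which differed by log2 1.75 and 1.95. The ependymal differences with the smallest p were those of Tmem212 (5.72 and 5.77), Ccdc153 (5.82 and 6.76) and Ak7, an adenylate kinase gene within the far stronger Papola (3.48 and 4.02). Ccdc153 averaged 5.17 in Foxp2hum/hum DLS and 0.30 in wild-type DLS, and Tmem212 averaged 0.90 and 0.26. Both thus passed the filter on low values through DMS.

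Summed over the 9 genes, the ependymal level ran from 3551 to 9957 in Foxp2hum/hum DMS, against 2221 to 7939 in Foxp2hum/hum DLS, and from 3361 to 6857 in wild-type DMS, against 1986 to 7158 in wild-type DLS. These sums were mostly Spag6, which shares reads with Gm7689. Leaving it out, a choice made after its values were seen, the sums were 387 to 1829 in Foxp2hum/hum DMS, against 108 to 377 in Foxp2hum/hum DLS, and 373 to 1866 in wild-type DMS, against 100.3 to 354 in wild-type DLS. The regions were then separate. No gene of the list was at 0 in every library of a group.

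Choroid plexus genes varied widely between libraries. Of 6 tested, 3 were higher in each genotype (Folr1, Clic6 and Ttr), and 4 further genes were under the filter. Ttr, the transthyretin gene, ran from 1.06 to 6160 normalised reads in Foxp2hum/hum DMS, with a median of 659, and from 0 to 79.7 in Foxp2hum/hum DLS, with a median of 1.78. In wild-type it ran from 0.847 to 9582 in DMS, with a median of 40.8, and from 0 to 137 in DLS, with a median of 1.09. The ranges overlapped in both genotypes. The 10 genes summed to 263 to 6929 in Foxp2hum/hum DMS, against 106 to 271 in Foxp2hum/hum DLS, and to 213 to 11006 in wild-type DMS, against 136 to 376 in wild-type DLS.

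With Ttr as a covariate, all 9 calls of members were kept in each genotype. With Ttr and Ccdc153, 4 rows still passed in Foxp2hum/hum (Dcx, Dlx1, Igfbpl1 and the full Sox4 row) and 1 in wild-type, that of Dcx. Dcx then differed by log2 2.885 ± 0.61 (SE) in Foxp2hum/hum and 3.06 ± 0.67 in wild-type (limma adjusted p = 0.00388 and 0.0076), against 2.65 ± 0.24 and 2.69 ± 0.25 without covariates. Cd24a differed by 1.09 ± 0.48 and 0.64 ± 0.53 (adjusted p = 0.228 and 0.492), against 2.23 ± 0.20 and 2.0 ± 0.21. Dlx2 (1.17 and 0.83, against 1.85 and 1.65) and Sp8 (1.70 and 1.396, against 3.07 and 2.85) also had smaller differences and did not pass. The SEs of Cd24a, Dlx2 and Sp8 were 2.35 to 2.64 times as large as without covariates. The other lost calls had differences nearer to those without covariates, with SEs 2.55 to 2.71 times as large. Whether the members differed from each other in this respect was not tested. Sox11 differed by 1.23 in Foxp2hum/hum and 1.44 in wild-type, against 1.46 and 1.695. The inner Sox4 row differed by 2.20 and 2.11, against 1.72 and 1.64. In wild-type, Dlx1 differed by 1.90, against 2.13, Igfbpl1 by 2.54, against 3.05, and the full Sox4 row by 1.30, against 1.46. Since Ccdc153 was nearly absent from DLS, its level and the region cannot be told apart in these libraries, and the part of ventricular tissue in the members' difference was not tested beyond this fit.

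The remaining lists covered striatal neurons, glia, vessels and neurons of other regions. Of 10 genes of striatal projection neurons, 7 were lower in DMS in each genotype, with the D2 receptor gene Drd2 at log2 -0.69 in Foxp2hum/hum and -0.64 in wild-type and the adenosine receptor gene Adora2a at -0.68 and -0.71. Drd1a, the D1 receptor gene, held at least 2700 normalised reads in each of the 46 libraries. Of 7 astrocyte genes 2 were higher and 1 was lower in each genotype: Sox9 (0.69 and 0.76), Gja1 (0.39 and 0.43) and Gjb6 (-0.55 and -0.31). Of 7 oligodendrocyte genes 0 passed in Foxp2hum/hum and 1 in wild-type (Cldn11), and of 5 oligodendrocyte precursor genes 0 and 1 (Olig2). None of 7 microglial or 6 endothelial and mural genes passed in either genotype. Of 5 cortical projection neuron genes, Fezf2 alone was higher, in Foxp2hum/hum, and of 5 septal and thalamic genes Tcf7l2 was higher in Foxp2hum/hum and Zic1 was lower in wild-type. The cortical genes varied between libraries, with sums of 75.7 to 1189 in Foxp2hum/hum DLS and 69.2 to 1168 in wild-type DLS. In DMS the sums were 101 to 385 and 115 to 607. Slc17a7, a gene of that list, was highest in DLS libraries 46 (864, Foxp2hum/hum) and 70 (783, wild-type). Library 70 also had the highest Dcx of wild-type DLS, at 111, and the highest Ttr, at 137. Dcx was 60.1 in library 46, and the highest Dcx of Foxp2hum/hum DLS was that of library 94, at 119. A relation of Dcx with these genes in DLS was not tested. No gene of the 14 lists passed for genotype or for the interaction.

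Library totals ran from 16.79 to 41.01 M reads (M for mega), and mitochondrially encoded genes took a mean of 22.4% of them in Foxp2hum/hum DMS, 20.2% in wild-type DMS, 24.8% in Foxp2hum/hum DLS and 22.7% in wild-type DLS. Foxp2 itself averaged 1332 ± 193 normalised reads in Foxp2hum/hum DMS and 1337 ± 263 in wild-type DMS (SD, n = 12 and 11), so the level of the transcript does not tell the genotypes apart.

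Within DMS, some libraries were high or low for most of the members. In Foxp2hum/hum, library 80 was the highest for 7 of the 9 genes and among the 4 highest for all 9, as was library 87 for all 9, while library 4 was the lowest for 6 and among the 4 lowest for all 9. In wild-type, library 56 was the highest for 6 and among the 4 highest for all 9, library 76 for all 9 and library 50 for 8. Library 80 was also the highest of Foxp2hum/hum DMS for genes of other lists, such as Slc1a2 (27489 normalised reads) and Flt1 (773). In wild-type DMS, Slc1a2 was highest in library 72 and Flt1 in library 88. Whether such levels are particular to the members was not tested. The spread of the members in DMS exceeded the median spread of all tested rows, except for Nes in wild-type. The SD of log2(value + 1) was 0.68 for Dcx in Foxp2hum/hum and 0.48 in wild-type, where the medians over all tested rows were 0.32 and 0.34.

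**Figure D5:**
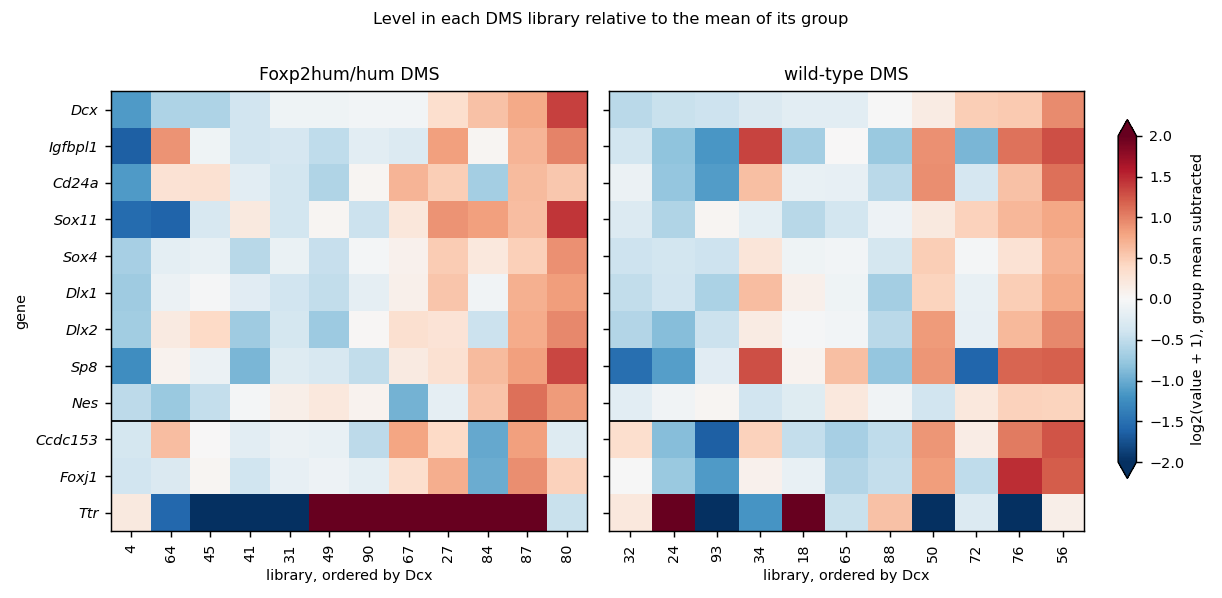
Level of the 9 genes and of 3 genes of the ependyma or choroid plexus (rows) in each DMS library (columns, ordered by Dcx). Colours show log2(value + 1) minus the mean of the group, red above and blue below. The colour scale ends at -2 and 2 and Ttr runs past it. Libraries 80 and 87 of Foxp2hum/hum and 56 and 76 of wild-type are red for all 9 genes, and library 4 is blue for all 9.

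Correlation with Dcx was computed over the 12 Foxp2hum/hum and the 11 wild-type DMS libraries, for 30 relations in all, with permutation tests (100000 resamples, two-sided) and Benjamini-Hochberg adjustment over the 30. In Foxp2hum/hum, 6 rows passed on Pearson's r: Sox4 (r = 0.89, rho = 0.90), Sox11 (r = 0.88, rho = 0.86), Sp8 (r = 0.88, rho = 0.80), Dlx1 (r = 0.81, rho = 0.73), Nes (r = 0.78, rho = 0.67) and the inner Sox4 row (r = 0.76, rho = 0.58). Their permutation p adjusted for r ran from 0.0024 for Sox4 and Sox11 to 0.0198 for the inner row. On rho, Nes (adjusted permutation p = 0.0795) and the inner row (0.154) did not pass. Dlx2, Cd24a and Igfbpl1 had r of 0.58, 0.46 and 0.67 and did not pass. Over the 24 relations planned first, Igfbpl1 passed on r (adjusted permutation p = 0.0403) but not on rho (0.141). The genes of that plan were chosen with earlier results of these data known.

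Without libraries 4 and 80, the farthest from the median of Dcx, r in Foxp2hum/hum was 0.77 for Sox11, 0.76 for Sox4, 0.75 for Nes, 0.70 for Sp8, 0.58 for Dlx1 and 0.39 for the inner row. Leaving out the libraries farthest in Dcx narrows its range, which can by itself lower r. Whether the relation of the inner row rested on these libraries was therefore not tested. In wild-type, 3 rows passed on r: Sox11 (r = 0.89, rho = 0.79, adjusted permutation p = 0.00255 for r), Sox4 (r = 0.76, rho = 0.82, 0.026) and Dlx2 (r = 0.75, rho = 0.73, 0.0302). On rho, Dlx2 did not pass (adjusted permutation p = 0.0619). The other 5 genes and the inner Sox4 row did not pass on r. Over the planned 24 relations, Nes passed on r (r = 0.66, adjusted permutation p = 0.0497) but not on rho (0.141). Without libraries 56 and 76, r was 0.75 for Sox11, 0.51 for Sox4 and 0.49 for Dlx2. These values are lower, but the range of Dcx is narrower too, so whether the relations of Sox4 and Dlx2 rested on these libraries was not tested. Sp8 had r = 0.38 in wild-type, against 0.88 in Foxp2hum/hum, a difference that was not tested.

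Genes of the ependyma (Ccdc153 and Foxj1) and of the choroid plexus (Ttr) were set beside Dcx in the same way. Ccdc153 had r = -0.02 in Foxp2hum/hum and 0.69 in wild-type, Foxj1 0.43 and 0.69, and Ttr 0.37 and -0.29, and none passed over the 30 relations (adjusted permutation p of at least 0.0506 for r). Over the 24 relations without those added after the data had been seen, Ccdc153 and Foxj1 passed on r in wild-type (adjusted permutation p = 0.0403 for each) but not on rho (0.124 and 0.141). The added relations, with Drd1a, the library total and the mitochondrial share, had r between -0.43 and -0.01 and did not pass either.

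Over the 23 DMS libraries with the mean of each group removed, 15358 genes with a mean of at least 50 were ranked by their r with Dcx, as a description. Sox11 was at rank 4 (r = 0.87), with Dcx itself at rank 1, Sox4 at 9 (0.84), Nes at 52 (0.74), Dlx1 at 91 (0.71), Dlx2 at 225 (0.63), Sp8 at 417 (0.59), Igfbpl1 at 537 (0.56) and Cd24a at 929 (0.51). Nes was thus nearer to Dcx across these pooled libraries than Cd24a and Igfbpl1 were, although it did not differ detectably between the regions. In wild-type DMS alone, the r of Nes (0.66) and Cd24a (0.62) were alike, and without libraries 56 and 76 they were 0.25 and 0.29. The genes outside the members with the highest r were Sdk2 (0.91), Ccnd2 (0.89), Itpkb (0.87), Nfia (0.86), Dpysl3 (0.85), Slit1 (0.84), Islr2 (0.84), Hjurp (0.84), Dpysl5 (0.83) and Nfib (0.83). They encode an adhesion protein (Sdk2), cyclin D2 (Ccnd2), an inositol trisphosphate kinase (Itpkb), nuclear factor I proteins (Nfia and Nfib), collapsin response mediator proteins (Dpysl3 and Dpysl5), a guidance cue (Slit1), a leucine-rich repeat membrane protein (Islr2) and a centromere histone chaperone (Hjurp).

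Of these 10 genes, Islr2 had the largest regional difference (log2 1.91 in Foxp2hum/hum and 2.11 in wild-type). Ccnd2, one of the progenitor list, did not pass in either genotype (-0.16 and -0.22). Itpkb, whose row shares reads with Gm5069 at 210% of it, did not pass either (0.44 and 0.45). In the DLS libraries, at Dcx levels of 16.1 to 119 normalised reads, the r of the other members with Dcx was highest for Nes (0.53) and Sox4 (0.45). It was 0.24 for Dlx2, 0.19 for Dlx1, 0.17 for Sox11, 0.10 for Sp8, -0.14 for Cd24a and -0.21 for Igfbpl1. Among the 10 genes named above, the r in DLS ran from 0.11 for Islr2 to 0.82 for Nfib, with Dpysl5 at 0.68.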

How the data were processed

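Messenger RNA was measured by sequencing in laser-captured striatum, with 46 libraries in 4 groups named by the header of the deposited table. The authors aligned reads to mm9 with TopHat 1.4.1 and used bedtools and DESeq, per the submitters' processing notes. The deposited values are a normalised signal per gene and library, read counts that the authors divided by 1 size factor a library. Dividing by the value of 1 read gave whole reads for 100.0% of the values (within 0.01), which recovered the counts. Totals ran from 16.79 to 41.01 M reads, and the lowest chi-square per degree of freedom between libraries of a group was 9.25, so no library repeated another.

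The main test was limma 3.58.1 (R 4.3.3, 4 group means, trended variance) on log2(value + 1) of rows whose mean was at least 10, adjusted over 19561 rows by Benjamini-Hochberg, with a threshold of 0.05, two-sided. Intervals are 95% and cover the spread between libraries. On the recovered reads, edgeR 4.0.16 (quasi-likelihood) called 3536 rows between regions in Foxp2hum/hum and 3293 in wild-type, and DESeq2 1.42.0 called 3814 and 3590. The procedure was tested on simulated data. Other alternatives were pseudocounts of 0.5 and 5, no filter, a mean of at least 50, TMM and quantile normalisation, the compared groups alone, array weights, marker genes as covariates, each library left out and, added after seeing the data, libraries 70 and 72 left out together.

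The genes and the 14 lists were chosen with earlier results of these data known. Named list genes are the 3 of each list with the smallest p among those that passed, with Ttr, Folr1, Ccdc153 and Foxj1. Some genes that this rule names are not reported here. Genes most like Dcx are the 10 of highest r. Gene positions came from GENCODE M1 on mm9, in which 25023 of 25259 identifiers were found. Promoters came from RefSeq on GRCm38.p6, and figures were drawn with matplotlib 3.10.9.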

Additional observations from a re-analysis of the deposited data

How the results depend on the processing

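The regional calls of the members depended on 1 choice. With Ttr and Ccdc153 as covariates, 4 rows passed in Foxp2hum/hum and 1 in wild-type, against 9 and 9 in the fit without covariates, and the count over all rows was 348 and 258. The SE of the members was 2.35 to 2.71 times as large in that fit, in which Ccdc153 was at 0 in 9 of 11 wild-type DLS libraries. Sox11 and the inner Sox4 row in both genotypes, and Dlx1, Igfbpl1 and the full Sox4 row in wild-type, lost their calls with differences nearer to those without covariates than Cd24a, Dlx2 and Sp8 had. Under each of the other alternatives, the 9 rows higher in DMS passed in both genotypes wherever they were tested, and Nes did not pass. Leaving out each library in turn gave 9 calls in Foxp2hum/hum and 9 in wild-type throughout. Sox11 in Foxp2hum/hum came nearest to the threshold, with a highest adjusted p of 0.00466. No direction of a called difference was reversed. Genotype and the interaction gave 0 members under every alternative, while over all rows the genotype difference in DLS gave 3 calls with DESeq2, 1 with array weights and 1 without library 77. Positive relations with Dcx numbered 6 rows in Foxp2hum/hum and 3 in wild-type, and 7 and 4 without the relations added after seeing the data, where Ccdc153 and Foxj1 also passed on r in wild-type. No paired analysis was possible because the columns carry library numbers that differ between groups and the labels name no animal. Depth limits Sp8 in DLS, where 1 library had 0 reads.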
